A study of Oryctolagus cuniculus with 24 samples.

Results

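The genes carried on the mitochondrial chromosome (MT) of the rabbit were followed through epithelial cells (IEC) and mononuclear cells of the lamina propria (LPMC), both from the caecum. The members were all genes that the deposited tables place on MT, 37 of 17318 genes, of which 28 lie on the plus strand and 9 on the minus strand. The 24 libraries came from 12 New Zealand white rabbits, each of which gave both cell types, in 4 groups of 3. Under TSO, ova of Trichuris suis, a whipworm of the pig, were given by mouth in 3 doses of 2500 on days 1, 14 and 21, and under Veh the vehicle was given. DSS rabbits drank 0.1% dextran sodium sulphate, a polysaccharide that damages the gut epithelium, for 5 days from day 26. Water rabbits drank the same fennel tea without it, and all rabbits were killed on day 35. The groups are therefore Veh Water (the control), TSO Water, Veh DSS and TSO DSS, in IEC and in LPMC. IEC had been shaken off with EDTA, and LPMC had been released from the remaining tissue by collagenase and collected on a density gradient, so that both are enriched fractions of bulk tissue and not pure cell types.

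The mitochondrial genome is a small circle that carries protein subunits of the respiratory chain and of ATP synthase, ribosomal RNAs of the mitochondrial ribosome and transfer RNAs. Both of its strands are transcribed into long precursors, which are cut into single RNAs, so that neighbouring genes begin with the same transcript and differ later through processing and decay. Enterocytes of the large bowel draw much of their energy from the oxidation of bacterial short chain fatty acids in mitochondria, and lymphoid and myeloid cells change their mitochondrial activity when they are activated. The tables give the members as Ensembl identifiers without names or lengths. No member could therefore be assigned to a respiratory complex, a ribosomal RNA or a transfer RNA, and no scaling by gene length could be made. Whether the deposited values already hold a correction for length is not given in the sources used here, so that the order of the members by level and their percents of the MT signal compare values as deposited and not amounts of RNA per length. For the same reason, the labelled cell types could not be checked against their marker genes, and nuclear genes of the respiratory chain were not analysed here. Fewer cells of a type and less RNA per cell cannot be told apart in such bulk samples.

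By the whole numbers behind the deposited values, IEC libraries summed to between 13148569 and 27479949 and LPMC libraries to between 3685511 and 15770416. The smallest library was TSO DSS replicate 3 of LPMC. Room A housed every rabbit except Veh Water replicate 1 and TSO Water replicate 2, which were in room B. The lowest value above 0 of a low MT gene lay between 160 and 1018 such units and never near 1. The whole numbers may thus be estimated counts rather than reads, which was not tested. Levels are given as CPM, the part of the library scaled to a library sum of 1000000, or as kCPM, with 1 kCPM equal to 1000 CPM, or as a percent of the library. Some abundant MT genes are listed at 0 in some libraries, as described below. If these zeros are missing values, they lower the library sum and raise its other levels. Filled at each gene's median proportion to MT genes without zeros, they would raise the sum of Veh Water replicate 1 of IEC by 36.3%. The rise would be 31.6% in TSO Water replicate 2, 23.2% in Veh DSS replicate 1 and 21.5% in TSO DSS replicate 3 of IEC. In LPMC it would be at most 10.8%, in Veh Water replicate 2.

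The 37 members fell into 4 kinds. There were 12 genes above 0 in all 24 libraries, with mean levels of 1732 to 27413 CPM. A further 4 genes were as abundant, with mean levels of 20558 to 49443 CPM where they were above 0, but were listed at exactly 0 in some libraries. Another 19 genes were low, with mean levels of 11.4 to 251 CPM over the 1 to 23 libraries in which they were above 0. The remaining 2 genes, ENSOCUG00000029081 and ENSOCUG00000029116, were at 0 in every library. The low genes together summed to between 202 and 945 CPM in IEC and between 59.2 and 870 CPM in LPMC, so that nearly all of the MT signal came from the 16 abundant genes. In IEC libraries 5 to 12 of the 19 low genes were above 0 (median 9), and in LPMC libraries 1 to 7 (median 4). IEC libraries were also deeper, and the part of depth in that difference was not tested.

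The most abundant member, ENSOCUG00000029096, showed the listed zeros most clearly. It stood at 0 in 13 libraries, 10 of IEC and 3 of LPMC. In IEC it was above 0 only in TSO Water replicate 1, at 58.2 kCPM, and in Veh DSS replicate 3, at 47.0 kCPM. In LPMC it stood at 43.0, 0 and 83.7 kCPM in Veh Water, at 57.0, 39.4 and 45.2 kCPM in TSO Water, at 58.0, 0 and 50.7 kCPM in Veh DSS, and at 37.2, 0 and 24.4 kCPM in TSO DSS. In each library the gene was thus either among the most abundant or listed at 0.

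The zeros fell in the libraries with the largest amounts of MT signal. ENSOCUG00000029096 was above 0 in every library in which the 12 always detected genes summed to 994550 or less, and 0 in every library from 1153815 upwards. ENSOCUG00000029103 was above 0 up to a sum of 4302333 and 0 from 4887298, which concerned Veh Water replicate 1, Veh DSS replicate 1 and TSO Water replicate 2 of IEC. ENSOCUG00000029101 and ENSOCUG00000029102 were above 0 up to 5138795 and 0 only in the library with the largest sum, 5506697, Veh Water replicate 1 of IEC. Below those sums each of the 4 genes kept a steady proportion to the 12. For every 100 units of the 12 genes there were 74.5 to 101 units of ENSOCUG00000029096 (median 87.7), 32.0 to 47.3 of ENSOCUG00000029101 (median 39.5), 17.8 to 24.7 of ENSOCUG00000029102 (median 20.9) and 27.3 to 39.4 of ENSOCUG00000029103 (median 33.2). Outside MT, 122 genes had a median above 10000 over the libraries in which they were above 0, and 1 of them was 0 in any library. The zeros were therefore entered as missing in the tests, which leaves each of these genes without a value in its richest libraries. Zeros of the low genes were also entered as missing, although the pattern above was shown only for the 4 abundant genes. Tests of a low gene thus rest on the libraries in which it was above 0.

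**Figure D1:**
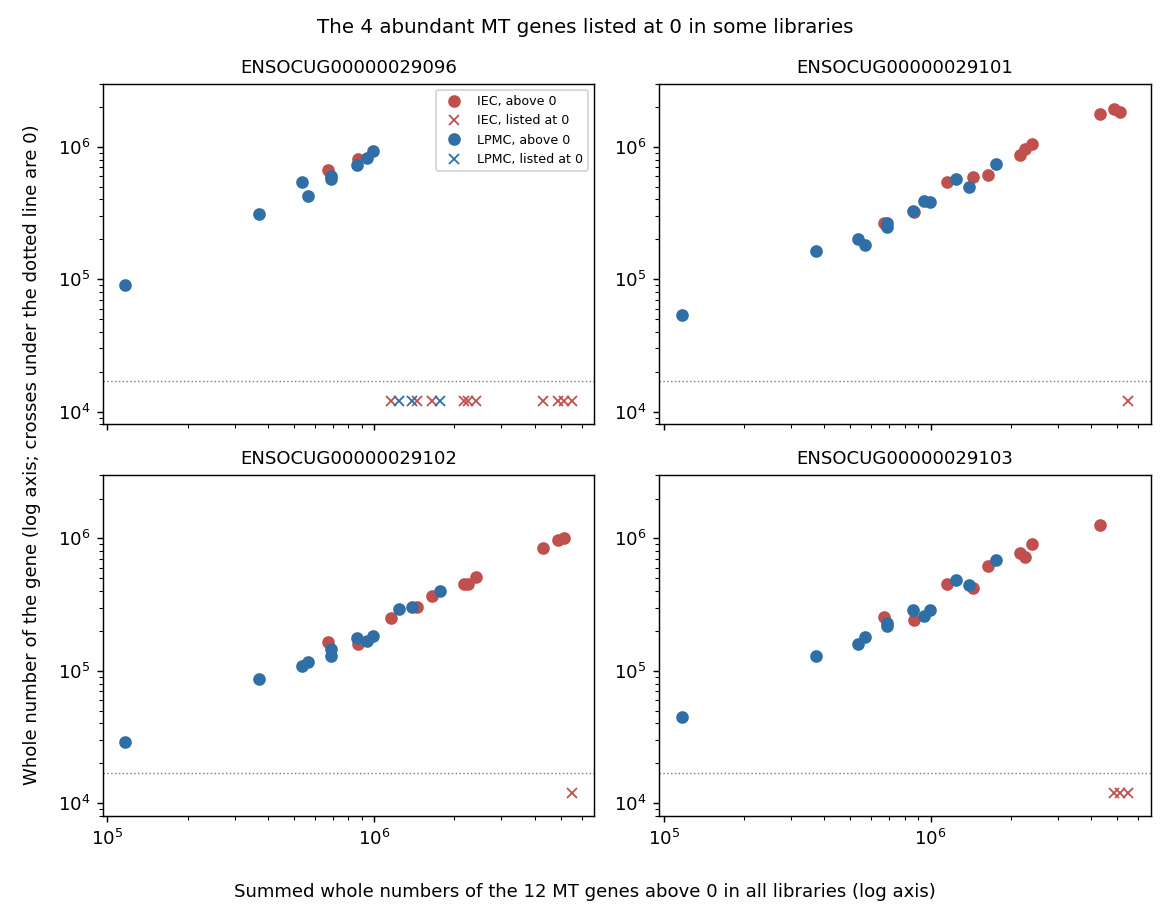
Whole number of each of the 4 abundant MT genes with listed zeros (vertical, log axis) against the summed whole numbers of the 12 MT genes above 0 in all libraries (horizontal, log axis), 1 point per library, with zeros drawn as crosses under the dotted line. Each gene rises with the sum and is then listed at 0 to the right of a single point, for ENSOCUG00000029096 between 994550 and 1153815.

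The other highly expressed members had the following levels, in which library sums were not adjusted for the listed zeros. ENSOCUG00000029101 stood in IEC at 0, 44.9 and 44.7 kCPM in Veh Water, at 23.4, 102.9 and 64.5 kCPM in TSO Water, at 68.3, 28.0 and 18.5 kCPM in Veh DSS, and at 39.4, 45.6 and 100.4 kCPM in TSO DSS. In LPMC it stood at 17.7, 44.4 and 34.1 kCPM in Veh Water, at 26.8, 16.9 and 21.0 kCPM in TSO Water, at 21.6, 47.1 and 22.8 kCPM in Veh DSS, and at 19.5, 41.0 and 14.6 kCPM in TSO DSS. Its treated and control libraries overlapped in both cell types, and TSO Water replicate 2 and TSO DSS replicate 3 of IEC were the highest.

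ENSOCUG00000029103 stood in IEC at 0, 33.5 and 31.9 kCPM in Veh Water, at 17.6, 0 and 58.6 kCPM in TSO Water, at 0, 23.1 and 17.7 kCPM in Veh DSS, and at 39.9, 39.6 and 71.4 kCPM in TSO DSS. In LPMC it stood at 15.5, 39.6 and 25.7 kCPM in Veh Water, at 17.7, 16.8 and 18.2 kCPM in TSO Water, at 17.1, 43.4 and 19.8 kCPM in Veh DSS, and at 15.6, 35.4 and 12.1 kCPM in TSO DSS. Among the libraries above 0, all 3 of TSO DSS in IEC were higher than both of Veh Water and both of Veh DSS were lower. However, the third Veh Water library was the one in which all 4 genes were listed at 0. The third Veh DSS library, replicate 1, was listed at 0 as well, where the 12 genes summed to 5138795. That order thus leaves out the library with the largest sum in both groups.

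ENSOCUG00000029102 was 0, 21.1 and 23.2 kCPM in IEC of Veh Water, 11.6, 51.9 and 34.0 kCPM in TSO Water, 37.8, 12.9 and 11.5 kCPM in Veh DSS, and 23.7, 22.0 and 48.0 kCPM in TSO DSS. In LPMC it was 9.27, 26.9 and 16.4 kCPM in Veh Water, 11.5, 10.8 and 11.5 kCPM in TSO Water, 11.8, 25.4 and 12.2 kCPM in Veh DSS, and 10.4, 21.2 and 7.81 kCPM in TSO DSS. TSO Water replicate 2 and TSO DSS replicate 3 of IEC were again the highest, and TSO DSS replicate 3 of LPMC the lowest.

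ENSOCUG00000029099 was the most abundant gene without a zero. In IEC it stood at 50.8, 27.0 and 28.4 kCPM in Veh Water, at 14.5, 69.8 and 47.9 kCPM in TSO Water, at 49.2, 17.7 and 14.2 kCPM in Veh DSS, and at 31.4, 31.8 and 66.1 kCPM in TSO DSS. In LPMC it stood at 11.6, 29.9 and 22.2 kCPM in Veh Water, at 14.2, 14.0 and 12.4 kCPM in TSO Water, at 14.5, 28.9 and 13.7 kCPM in Veh DSS, and at 11.7, 28.1 and 7.78 kCPM in TSO DSS. Rabbits of the same group differed widely, and every treated group overlapped with its control.

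ENSOCUG00000029115 was also highest in TSO Water replicate 2 and TSO DSS replicate 3 of IEC. In IEC it was 31.4, 16.3 and 19.0 kCPM in Veh Water, 11.4, 39.8 and 22.9 kCPM in TSO Water, 31.4, 8.06 and 6.42 kCPM in Veh DSS, and 13.4, 12.9 and 38.7 kCPM in TSO DSS. In LPMC it was 7.75, 19.6 and 15.2 kCPM in Veh Water, 12.1, 9.33 and 8.98 kCPM in TSO Water, 9.39, 19.4 and 8.90 kCPM in Veh DSS, and 6.51, 12.5 and 5.68 kCPM in TSO DSS. Treated and control libraries overlapped in each comparison.

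The 12 always detected genes rose and fell together between libraries. Relative to the genes outside MT, their sum varied with an SD of 0.99 on the log2 scale over the 24 libraries, 1.01 within IEC and 0.65 within LPMC. The ratio of 1 member to another varied less in most of the 66 pairs, with a median SD of 0.40 on the log2 scale. The steadiest pair was ENSOCUG00000029090 and ENSOCUG00000029108, whose ratio lay between 0.450 and 0.558 in all 24 libraries (SD of 0.083 on the log2 scale). ENSOCUG00000029086 kept a ratio of 0.359 to 0.496 to ENSOCUG00000029115 (SD of 0.13). The least steady pair was ENSOCUG00000029082 and ENSOCUG00000029097, whose ratio ran from 0.801 to 17.9 (SD of 1.07). ENSOCUG00000029097 lies on the minus strand, and because the libraries did not keep strand, its reads cannot be told apart from those of a gene opposite to it.

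Outside MT, the 3 genes whose pattern was most like that of the 12 members over the 24 libraries were ENSOCUG00000001808 on chromosome 3 (r = 0.91), ENSOCUG00000025221 on chromosome 9 (r = 0.90) and ENSOCUG00000009649 on chromosome 14 (r = 0.87), chosen from 7628 genes as the highest Pearson correlations on the log2 scale. These are descriptions of the same libraries. ENSOCUG00000001808 ranged from 34.9 to 242 CPM of the genes outside MT in IEC and from 38.8 to 129 CPM in LPMC.

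The share of the library on MT was compared next between the groups, to ask whether TSO, DSS or both moved it. Over all 37 members, it was 20.1%, 20.5% and 21.0% in IEC of Veh Water, 17.4%, 41.7% and 32.0% in TSO Water, 29.9%, 12.4% and 14.2% in Veh DSS, and 20.9%, 21.2% and 46.5% in TSO DSS. The controls lay close together, whereas each treated group spread widely, its highest library at 2.22 to 2.41 times its lowest. The share was also taken without the 25 members that were 0 in any library. These were left out of the library sum as well, here and below. By this measure the same libraries gave 20.1%, 11.7% and 12.2% in Veh Water, 7.06%, 31.0% and 19.3% in TSO Water, 21.5%, 6.32% and 5.17% in Veh DSS, and 11.8%, 11.7% and 31.4% in TSO DSS. The control libraries then differed 1.72-fold, so that their close agreement held only for the sum over all members, of which 4 abundant genes were listed at 0 in Veh Water replicate 1 and 1 in the other controls.

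In LPMC the share over all members was 13.5%, 23.5% and 25.0% in Veh Water, 17.8%, 13.7% and 15.1% in TSO Water, 16.6%, 22.9% and 16.6% in Veh DSS, and 12.8%, 18.8% and 9.06% in TSO DSS. Without the members that were 0 in any library it was 5.35%, 13.9% and 10.6% in Veh Water, 7.33%, 5.78% and 6.02% in TSO Water, 6.47%, 12.7% and 6.68% in Veh DSS, and 4.88%, 9.96% and 3.36% in TSO DSS. The lowest library of all was TSO DSS replicate 3, which was also the smallest. Every treated group overlapped with Veh Water under both measures. Over all members, the overlap came from Veh Water replicate 1 alone, the control of room B, since every treated library lay below the other 2 controls.

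**Figure D2:**
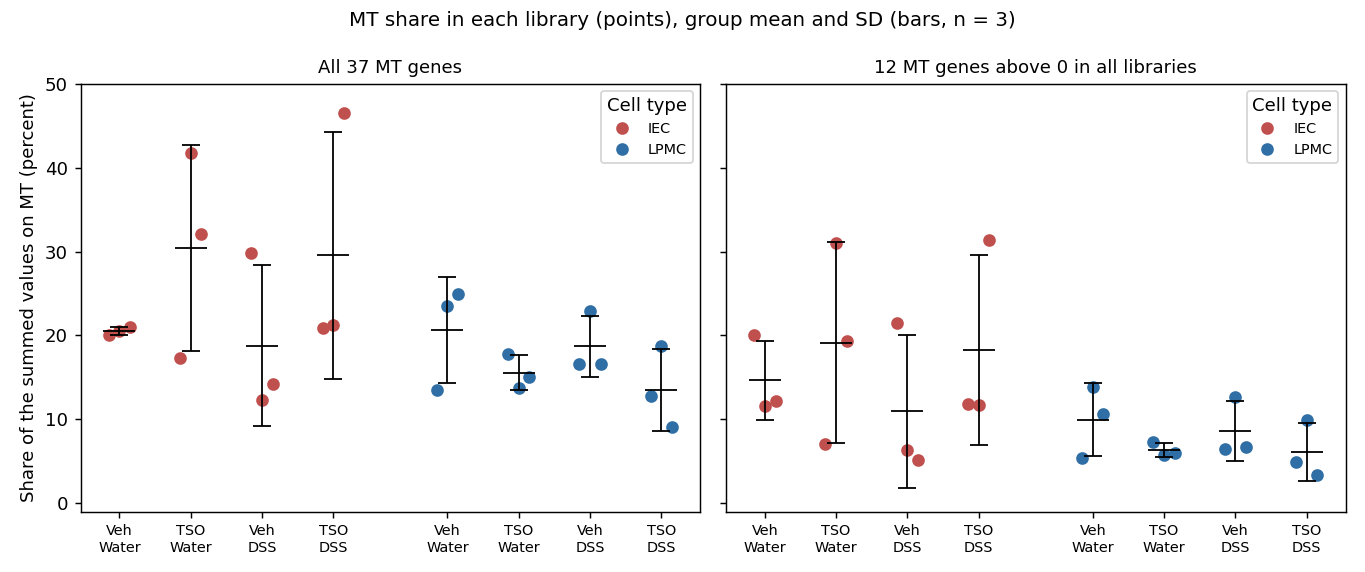
Share of each library on MT in percent (vertical) for the 8 groups (horizontal), 1 point per library with the group mean and SD (n = 3), over all 37 members on the left and over the 12 members above 0 in all libraries on the right. On the right, the other members are left out of the library sum too. The 3 IEC libraries of Veh Water lie between 20.1% and 21.0% on the left and between 11.7% and 20.1% on the right.

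With 3 libraries against 3, the test of the share could not reach 0.05 whatever the values, so that the differences are given by size with the p they had. In IEC, TSO Water had a mean of 30.4% ± 12.3 (SD, n = 3), Veh DSS of 18.8% ± 9.63 and TSO DSS of 29.5% ± 14.7, against 20.5% ± 0.457 in Veh Water. The two-sided exact permutation tests gave p = 0.4, p = 1 and p = 0.2 (n = 3 against 3), where 0.1 is the smallest p possible. In LPMC, the means were 15.5% ± 2.10, 18.7% ± 3.63 and 13.5% ± 4.91, against 20.7% ± 6.27 in Veh Water, with exact permutation p = 0.4, p = 0.8 and p = 0.2. TSO DSS differed from Veh DSS by 10.7 percentage points in IEC (exact permutation p = 0.5) and by -5.15 points in LPMC (exact permutation p = 0.3). After Benjamini-Hochberg adjustment over the 8 comparisons the smallest value was 0.64. By their means the groups ran from TSO Water through TSO DSS and Veh Water to Veh DSS in IEC, and from Veh Water through Veh DSS and TSO Water to TSO DSS in LPMC, and neighbours in that order were tested only where they are compared above. Without the members that were 0 in any library, the differences from Veh Water became 4.48, -3.65 and 3.64 points in IEC and -3.59, -1.36 and -3.89 points in LPMC, in the order TSO Water, Veh DSS, TSO DSS. In room A alone, with all members, they were 3.96, -1.95 and 8.79 points in IEC and -7.80, -5.57 and -10.7 points in LPMC. The IEC groups overlapped there (exact permutation p = 1, 1 and 0.6). In LPMC all 3 treated groups lay wholly below Veh Water, with exact permutation p = 0.333, 0.2 and 0.2, where 2 libraries against 2 cannot give less than 0.333 and 3 against 2 not less than 0.1. Without the members that were 0 in any library, TSO Water and TSO DSS of LPMC still lay wholly below in room A and Veh DSS did not.

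The single genes were then tested against Veh Water with limma on log2(value + 1), which understates the change of low genes, with Benjamini-Hochberg adjustment over all genes tested. A gene was called at an adjusted p under 0.05 and a log2 fold change above 1 or under -1. No member was called in any of the 6 comparisons, nor at an adjusted p under 0.05 alone, where 3.9% of all genes in IEC and 6.28% in LPMC passed in TSO DSS. edgeR's quasi-likelihood test called no member either, whereas DESeq2 called 1, ENSOCUG00000029100 in Veh DSS of IEC, where it called 3.67% of all genes. In IEC, 0 of 23 tested members were called in TSO Water, where 0% of all genes were, 0 of 22 in Veh DSS, where 0.0715% were, and 0 of 24 in TSO DSS, where 3.59% were. In LPMC, 0 of 20 members were called in TSO Water, Veh DSS and TSO DSS each, where 0.0268%, 0.134% and 5.81% of all genes were. No member was called without any 1 library, but single libraries set the background. In TSO DSS of LPMC limma called 0% of all genes without Veh Water replicate 2, 0.217% without Veh Water replicate 1, 1.24% without TSO DSS replicate 1, 2.02% without Veh Water replicate 3 and 15.6% without TSO DSS replicate 2. In TSO DSS of IEC it called 1.16% without TSO DSS replicate 1 and 1.9% without Veh Water replicate 3, and in Veh DSS of IEC 2.72% without Veh DSS replicate 1. In the other fits of these 2 comparisons of IEC the share ran from 2.98% to 3.68% and from 0% to 0.0179%, in TSO Water from 0% to 0.0273% in IEC and from 0% to 0.0537% in LPMC, and in Veh DSS of LPMC from 0% to 0.303%. At an unadjusted p under 0.05 the members numbered 0, 0 and 1 in IEC and 0, 1 and 2 in LPMC, beside 3.38%, 8.75% and 16.3% of all genes in IEC and 6.91%, 11.5% and 22.8% in LPMC. Among them, ENSOCUG00000029089 in TSO DSS of IEC and ENSOCUG00000029104 in Veh DSS of LPMC had 1 library above 0 in 1 of the groups. Nothing is read from these 2. The groups did not overlap for 3 of 23, 2 of 22 and 4 of 24 members in IEC, beside 8.38%, 13.4% and 21.9% of all genes, and for 1, 1 and 5 of 20 members in LPMC, beside 11.4%, 18.1% and 29.7%. Of these, 0, 1 and 1 in IEC and 0, 0 and 2 in LPMC were abundant members, and 1 of all these members, ENSOCUG00000029084 in TSO DSS of LPMC, had values in 3 libraries against 3. With zeros kept, the groups did not overlap for 0 of 23, 1 of 26 and 1 of 25 members in IEC and for 0 of 20, 0 of 21 and 2 of 20 in LPMC. Single libraries moved these counts. In LPMC without Veh Water replicate 1, the control of room B, the groups did not overlap for 19, 6 and 15 of 20 members in TSO Water, Veh DSS and TSO DSS, beside 30.9%, 31% and 40.3% of all genes. In TSO Water the 19 held all 16 abundant members. There, 17 of 20 members had an unadjusted p under 0.05, beside 13.2% of all genes, while none was called. In LPMC without TSO DSS replicate 2 the groups did not overlap for 11 of 18 members, beside 56.5% of all genes. In IEC they did not overlap for 16 of 22 members in Veh DSS without its replicate 1, beside 36.6%, for 11 of 23 in TSO Water without its replicate 1, beside 23.4%, and for at most 7 of 24 in TSO DSS without any 1 library, beside 32.4%. Without replicate 1 of Veh DSS, 40.9% of members there had an unadjusted p under 0.05 by limma, beside 18.1% of all genes. Without replicate 1 of TSO Water, 13% did, beside 5.96%.

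With all libraries and the scaling used, the log2 fold changes of the abundant members had 1 sign within each comparison, which did not hold under every setting. In IEC their log2 fold changes ran from 0.08 to 0.53 in TSO Water (median 0.29, median SE 0.70), from -0.81 to -0.24 in Veh DSS (median -0.62, median SE 0.65) and from 0.06 to 0.80 in TSO DSS (median 0.30, median SE 0.58), over 15 genes each. In LPMC they ran from -0.71 to -0.41 in TSO Water (median -0.55, median SE 0.43), from -0.43 to -0.07 in Veh DSS (median -0.18, median SE 0.50) and from -1.53 to -0.50 in TSO DSS (median -0.75, median SE 0.62), over 16 genes each. The median over all genes tested lay between -0.05 and 0.02 in these comparisons. Since the members move together between libraries, a shared sign over 15 or 16 genes is not 15 or 16 independent observations, and most of these values were smaller than or close to their errors. Single rabbits set several of the medians. Without TSO Water replicate 2 the IEC median of TSO Water was -0.27, and without TSO DSS replicate 3 that of TSO DSS was -0.19. In room A, 8 abundant members were higher and 7 lower in TSO Water of IEC (median 0.01). With CPM over all genes, 13 were higher and 2 lower in TSO Water of IEC, and 10 higher and 5 lower in TSO DSS of IEC. In Veh DSS of LPMC the signs were mixed without any 1 of 4 libraries, with medians from -0.01 to 0.09.

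**Figure D3:**
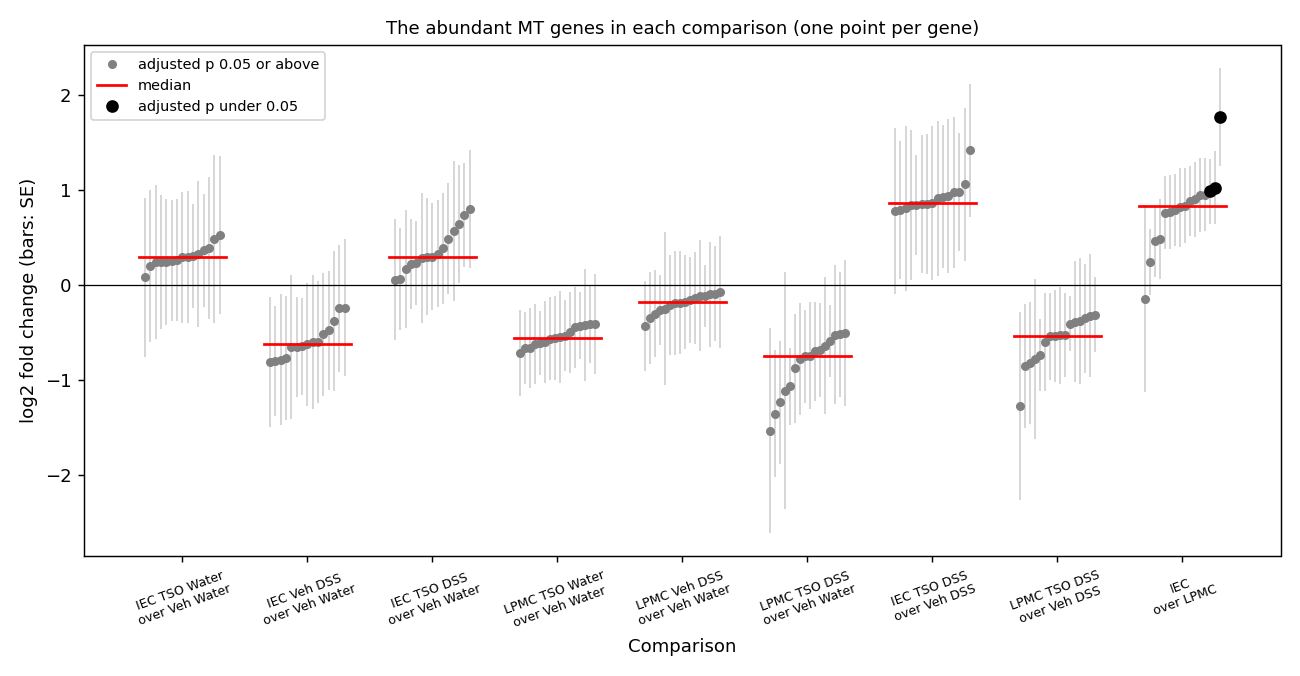
log2 fold changes of the abundant MT genes (vertical, bars show the SE, red lines the medians) in the 9 comparisons (horizontal), 1 point per gene. Genes with an adjusted p under 0.05 appear in black and occur only in the comparison of IEC over LPMC, while the medians against Veh Water lie between -0.75 and 0.30.

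The lowest p among the abundant members against Veh Water belonged to ENSOCUG00000029084 in LPMC of TSO DSS. It stood at 1.51, 2.55 and 2.85 kCPM in Veh Water and at 1.45, 1.40 and 0.733 kCPM in TSO DSS. All 3 treated libraries lay below the 3 controls, the nearest by a small margin. The log2 fold change was -1.06 (SE 0.40), with an adjusted p of 0.189 by limma, which was not called.

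TSO DSS was also set against Veh DSS, to compare rabbits that all had DSS. Among 23 members in IEC and 19 in LPMC none was called by limma, as was no gene outside MT (0% of 10305 and of 10056 genes), nor any gene by edgeR's quasi-likelihood test. DESeq2 called 29 genes in IEC, 1 of them a member, and 241 in LPMC, none of them a member. In LPMC without TSO DSS replicate 2, limma called 795 of 10055 genes and no member. With all libraries, 0 and 0 members had an unadjusted p under 0.05, beside 1.67% and 9.2% of all genes. The groups did not overlap for 4 of 23 members in IEC and 1 of 19 in LPMC, beside 4.73% and 15.4% of all genes, and 1 of these in each cell type was abundant. The comparison with all genes is uneven, since zeros were missing for members alone: the 4 in IEC rested on 1 library against 2, 2 against 1 or 3 against 2, and the 1 in LPMC on 2 against 2, and with zeros kept they numbered 2 of 24 and 0 of 19. Without Veh DSS replicate 1 of IEC they did not overlap for 18 of 22 members, all 15 abundant ones among them, beside 15.4% of all genes, and without TSO DSS replicate 2 of LPMC for 15 of 18, beside 51.6%. In these 2 fits, limma gave an unadjusted p under 0.05 for 31.8% of members, beside 3.57% of all genes, and for 16.7%, beside 30.6%. The median log2 fold change of the abundant members was 0.87 in IEC (range 0.79 to 1.42, median SE 0.79) and -0.53 in LPMC (range -1.27 to -0.31, median SE 0.55). With DESeq2 or with zeros kept as 0, 1 member was called in IEC, ENSOCUG00000029087, a low gene that was above 0 in 4 IEC libraries only. Beside it, 0.283% and 0.0097% of all genes were called. The same alternatives called ENSOCUG00000029100, a low gene above 0 in 7 IEC libraries, in Veh DSS over Veh Water of IEC, beside 3.67% and 0.0893% of all genes. Both calls set zeros against values of genes whose smallest value above 0 was 230 or more units.

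Between the cell types, the question was whether IEC carried more MT signal than LPMC of the same rabbit. Over all 37 members the share was 24.8% ± 10.6 in IEC and 17.1% ± 4.79 in LPMC (SD, n = 12 each). It was higher in IEC in 7 of 12 rabbits, by 7.70 percentage points on average (two-sided exact sign-flip permutation test, p = 0.0864). Without the members that were 0 in any library it was 15.8% ± 8.94 and 7.75% ± 3.28, higher in IEC in 8 of 12 rabbits, by 8.01 points (exact permutation p = 0.0322). With all members the test thus missed 0.05, and the abundant members with listed zeros were at 0 more often in IEC. Of the 12 rabbits, 6 took that p to 0.05 or above when left out in turn (range 0.0195 to 0.0645), and in the 10 rabbits of room A the difference was 5.62 points (exact permutation p = 0.129). By group (n = 3 each), the mean difference over all members was -0.133 points in Veh Water and 0.117 in Veh DSS. It was 14.8 points in TSO Water and 16.0 in TSO DSS. Without the members that were 0 in any library, these means were 4.68, 2.39, 12.7 and 12.2 points in the same order.

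The rabbits differed in direction. IEC exceeded LPMC most in TSO DSS replicate 3, at 46.5% against 9.06%, and in TSO Water replicate 2, at 41.7% against 13.7%. In Veh DSS replicate 2 the order was turned, at 12.4% in IEC and 22.9% in LPMC. Over the 12 rabbits the share in LPMC and that in IEC had r = -0.62 (permutation p = 0.0291, adjusted over 3 relations 0.0873) and rho = -0.40 (permutation p = 0.199). Without TSO Water replicate 2 and TSO DSS replicate 3, whose IEC shares lay farthest from the median, r was -0.32 (permutation p = 0.376). These are also the rabbits with the largest gap between the cell types, and r was farther from 0 with them than without, while within room A, which holds TSO DSS replicate 3, r was -0.67 (n = 10, permutation p = 0.0332). Without the members that were 0 in any library, r was -0.58 (permutation p = 0.0469, adjusted 0.141) and rho -0.67 (permutation p = 0.0191, adjusted 0.0572), and without the same 2 rabbits -0.41 (permutation p = 0.240) and -0.52 (permutation p = 0.133). Against the sum of the library, the share in IEC had r = 0.02 and rho = -0.03 (permutation p = 0.941 for each). In LPMC, r was 0.53 (permutation p = 0.0783) and rho 0.44 (permutation p = 0.154), and r fell to 0.06 without Veh DSS replicate 2 and TSO DSS replicate 3.

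**Figure D4:**
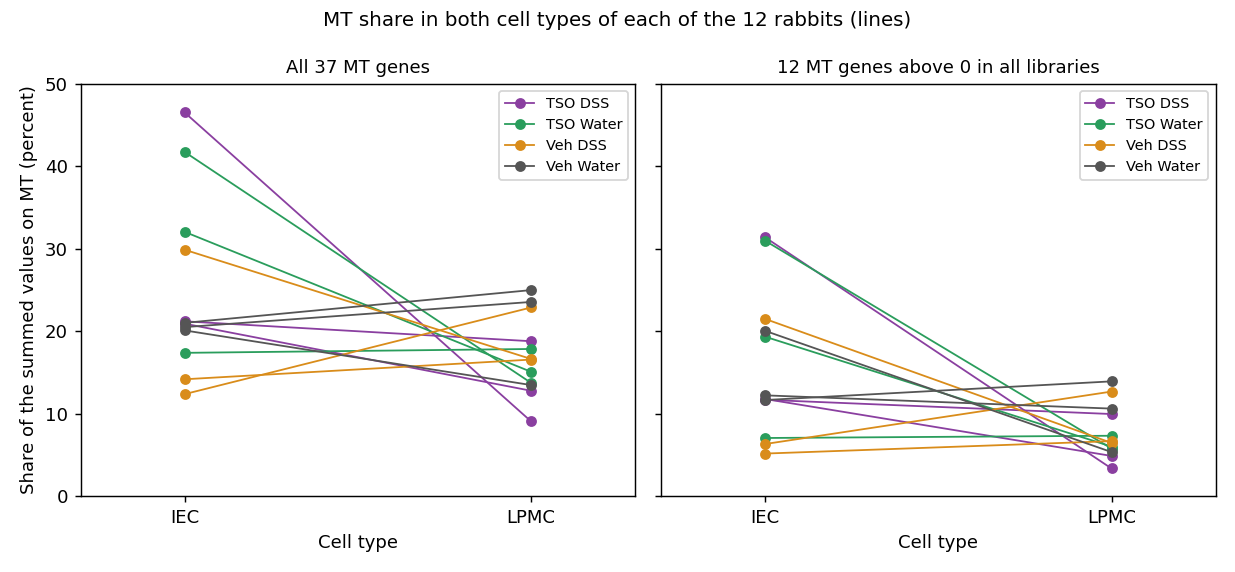
Share of the library on MT in percent (vertical) in IEC and LPMC (horizontal), with 1 line per rabbit coloured by group, over all 37 members on the left and over the 12 members above 0 in all libraries on the right. On the right, the other members are left out of the library sum too. The steepest line falls from 46.5% to 9.06% on the left, and 5 of 12 rabbits on the left are higher in LPMC.

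In the fit over all genes with the rabbit as a block, 2 of 25 members were called between the cell types, beside 20.1% of all genes, and 4 had an adjusted p under 0.05, beside 50.9% of all genes. At an unadjusted p under 0.05 there were 9, beside 56.6%, and 3 did not overlap between the cell types, beside 6.63%. Those 3 were low genes with values in 3 or 4 IEC and 1 or 2 LPMC libraries, their zeros being missing, and with zeros kept 0 of 32 members did not overlap, so that nothing is read from this count. Read against the background, 8% of the members were called here. With other settings that share was at times above the background, at 28% beside 14.6% with CPM over genes outside MT, at 34.8% beside 20.9% without Veh DSS replicate 2, at 24% beside 19.1% without Veh Water replicate 2, at 20% beside 18.7% without Veh Water replicate 3 and at 21.9% beside 21.4% with DESeq2. Of the 16 abundant members 15 were higher in IEC, with a median log2 fold change of 0.83 (range -0.14 to 1.77, median SE 0.39), where the median of all genes was 0.01. The exception, ENSOCUG00000029096, had values in 2 IEC and 9 LPMC libraries only.

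ENSOCUG00000029097 had the largest difference. It stood in IEC at 3.48, 1.63 and 1.62 kCPM in Veh Water, at 0.882, 4.80 and 3.09 kCPM in TSO Water, at 4.19, 1.74 and 0.658 kCPM in Veh DSS, and at 2.11, 2.31 and 5.33 kCPM in TSO DSS. In LPMC it stood at 0.413, 1.58 and 1.15 kCPM in Veh Water, at 1.03, 0.589 and 0.591 kCPM in TSO Water, at 0.813, 1.18 and 0.578 kCPM in Veh DSS, and at 0.345, 1.39 and 0.0800 kCPM in TSO DSS. The cell types overlapped, and the log2 fold change was 1.77 (SE 0.52, adjusted p = 0.0115 by limma). It stayed between 1.35 and 1.96 when each rabbit was left out, with an adjusted p between 0.00962 and 0.0282.

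The second called member, ENSOCUG00000029099, rose by 1.03 on the log2 scale in IEC (SE 0.39, adjusted p = 0.0395 by limma), and its call was lost without any 1 of 7 rabbits. ENSOCUG00000029105 had a log2 fold change of 0.99 (SE 0.34, adjusted p = 0.0274) and lost its adjusted p without any 1 of 3 rabbits. ENSOCUG00000029094, a low gene of the minus strand, went the other way, at -0.98 (SE 0.30, adjusted p = 0.0160). In IEC it stood at 240.0, 219 and 97.7 CPM in Veh Water, at 91.9, 329 and 81.3 CPM in TSO Water, at 199.7, 282 and 71.2 CPM in Veh DSS, and at 127, 196 and 213 CPM in TSO DSS. In LPMC it stood at 248, 569 and 484 CPM in Veh Water, at 256, 280.3 and 284 CPM in TSO Water, at 156, 596 and 373 CPM in Veh DSS, and at 138, 248 and 0 CPM in TSO DSS. The cell types overlapped, and the gene was 0 only in TSO DSS replicate 3 of LPMC, the smallest library. With edgeR's quasi-likelihood test and with DESeq2, which take that 0 as a count, its adjusted p was 0.393 and 0.293.

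The makeup of the MT signal does not depend on how libraries are scaled to each other. Among the 12 always detected genes, ENSOCUG00000029099 took the most, 27.4% ± 2.44 in IEC and 25.0% ± 2.42 in LPMC (SD, n = 12). ENSOCUG00000029115 took 15.0% ± 1.80 and 16.4% ± 1.44, and ENSOCUG00000029108 took 14.6% ± 0.427 and 14.0% ± 0.555, the steadiest share, with a coefficient of variation of 2.92% in IEC and 3.95% in LPMC. These 3 genes together made up most of the signal of the 12.

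The clearest contrasts in makeup lay among the smallest shares. ENSOCUG00000029082 took 2.38% ± 0.50 in IEC, with a median of 2.33% and a range from 1.72% to 3.60%, and 3.82% ± 1.12 in LPMC, with a median of 3.84% and a range from 2.45% to 5.47%. Its share was higher in LPMC in 12 of 12 rabbits, although the ranges overlapped. ENSOCUG00000029084 behaved alike, at 1.94% ± 0.445 in IEC and 2.64% ± 0.652 in LPMC, and was higher in LPMC in 10 of 12 rabbits. ENSOCUG00000029097 went the opposite way, at 1.90% ± 0.446 in IEC and 1.10% ± 0.370 in LPMC, and was higher in IEC in 11 of 12 rabbits. Its lowest share, 0.253%, was that of TSO DSS replicate 3 of LPMC. ENSOCUG00000029099 was higher in IEC in 11 of 12 rabbits and ENSOCUG00000029108 in 10, while ENSOCUG00000029115 was higher in LPMC in 10. The other 6 genes were higher in IEC in 4 to 9 rabbits. These counts are descriptions without a test, and shares of a whole are not independent of each other.

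**Figure D5:**
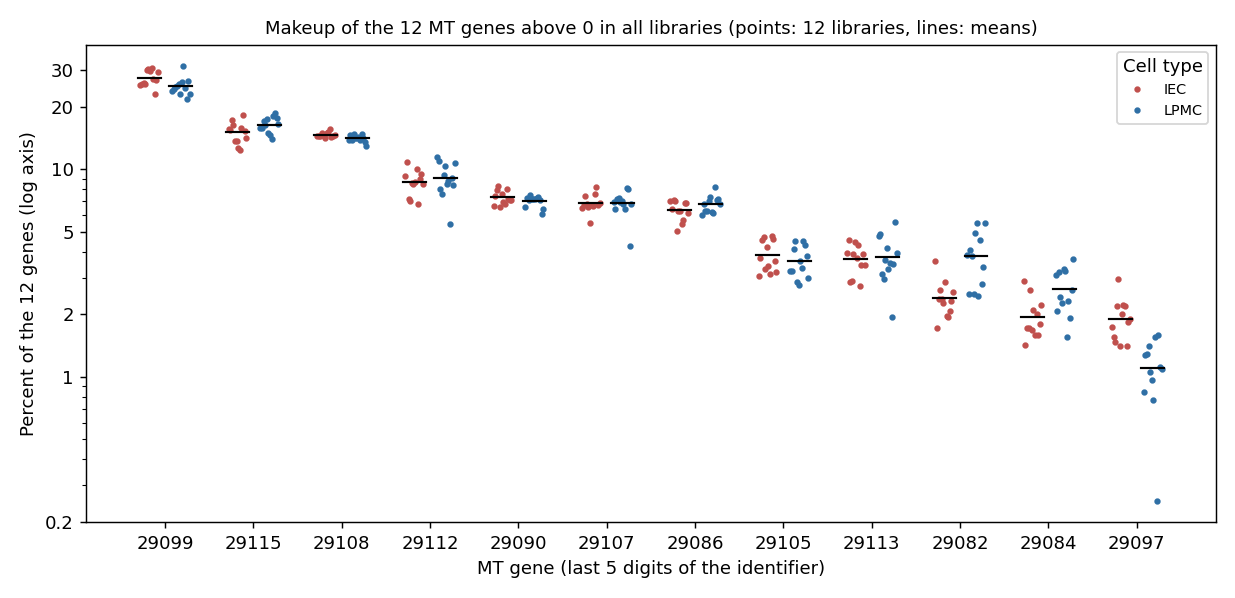
Percent of the summed signal of the 12 MT genes above 0 in all libraries (vertical, log axis) taken by each gene (horizontal, last 5 digits of the identifier), 1 point per library, lines at the means of IEC and LPMC (n = 12 each). ENSOCUG00000029097 has means of 1.90% in IEC and 1.10% in LPMC, and ENSOCUG00000029082 of 2.38% and 3.82%.

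Against Veh Water, the makeup overlapped for all 12 genes in the 3 treated groups of LPMC and in TSO Water and Veh DSS of IEC, and for 8 of 12 in TSO DSS of IEC. The 4 exceptions there, given without a test, were ENSOCUG00000029097, described below, ENSOCUG00000029099, at 27.0% to 30.5% against 25.3% to 25.8% in Veh Water, ENSOCUG00000029108, at 14.9% to 15.6% against 14.38% to 14.43%, and ENSOCUG00000029086, the only lower one, at 5.42% to 6.28% against 6.44% to 7.09%. ENSOCUG00000029082 took 2.56% ± 0.959 in Veh Water, 2.31% ± 0.240 in TSO Water, 2.41% ± 0.179 in Veh DSS and 2.26% ± 0.531 in TSO DSS of IEC (SD, n = 3 each). In LPMC it took 3.47% ± 0.857, 3.88% ± 1.40, 3.76% ± 1.22 and 4.15% ± 1.55. The differences between the groups were smaller than their SDs in LPMC. ENSOCUG00000029097 took 1.59% ± 0.133 in Veh Water and 2.13% ± 0.119 in TSO DSS of IEC, where the 3 libraries of TSO DSS, between 2.00% and 2.22%, lay above those of Veh Water, between 1.47% and 1.73%. In LPMC the same gene took 1.14% ± 0.253 in Veh Water, and its TSO DSS libraries ranged from 0.253% to 1.55%, which enclosed the controls.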

How the data were processed

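RNAseq of IEC and LPMC from 12 rabbits was used. The authors deposited 6 tables of a normalized signal per gene and library, 1 per treated group and cell type with its Veh Water libraries. Per the labels, libraries were polyA selected and unstranded, and the submitters' processing notes name FastQC and the build OryCun2.0. Aligner and counter are not given in the sources used here. The authors' own fold changes, p-values and FDR, also in these tables, were not used. The labels describe single-end reads, the methods paired inserts.

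Each of the 36 columns is a whole number per gene times a factor of the library. All values under 400 steps came within 0.1 of a whole number, and the Veh Water numbers were the same in all tables. CPM is the whole number divided by the library's sum over all genes, times 1000000. Zeros of MT genes were missing. limma 3.58.1 (R 4.3.3) was fitted on log2(value + 1) within a table, over the genes the authors marked as present, as the design set for normalized values. For TSO DSS over Veh DSS and for IEC over LPMC it was fitted on whole numbers scaled by TMM, for genes at 10 or more in at least 3 libraries, with the rabbit as a block in the latter. edgeR 4.0.16 (quasi-likelihood) and DESeq2 1.42.0 on the whole numbers were alternatives. Shares were tested by exact permutation in Python 3.11.15, correlations with 100000 permutations. The limma fits were first checked on simulated data, with 200 genes changed and a dispersion of 0.1. In simulated TSO DSS over Veh Water of LPMC, 94% of genes with an absolute log2 fold change of 2 had an adjusted p under 0.05. At an absolute change of 1, 14% did, so that a missing call says little about changes of that size. In simulated IEC over LPMC these were 99% and 88%. Unchanged genes that passed numbered 1 and 15.

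IEC and LPMC of a rabbit pair by animal. A shared replicate number does not pair groups, since each group has its own rabbits, and the deviations of same-numbered libraries correlated between -0.50 and 0.40. A name table of 38822 genes matched 0 of 17318 identifiers, so the marker and pathway lists could not be used. The members and lists were chosen with earlier results of these data known. Values in every library were given for the 6 members with the highest mean CPM and for each with listed zeros and a mean above 100 CPM. Other genes were named for their place in a test or makeup, after their values were seen.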

Additional observations from a re-analysis of the deposited data

Results flagged for a closer look

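For the MT share over all 37 members, the 3 IEC libraries of TSO DSS rabbits lay above the mean of Veh Water and the 3 LPMC libraries below it, which is why it is listed here. In IEC, TSO DSS replicates 1 and 2, at 20.9% and 21.2%, were close to the control mean of 20.5%, and without replicate 3 the difference was 0.520 percentage points. The IEC minus LPMC difference within a rabbit averaged 16.0 percentage points in TSO DSS (SD 18.8, n = 3) and -0.133 points in Veh Water (SD 5.87, n = 3), a gap of 16.1 points (two-sided exact permutation p = 0.2, smallest possible 0.1). Without the members that were 0 in any library, 1 of 3 IEC libraries of TSO DSS lay above the mean of Veh Water, and the gap was 7.54 points (exact permutation p = 0.5). In TSO Water, where 2 of 3 IEC libraries lay above the control mean, the difference within a rabbit averaged 14.8 points over all members (SD 14.4, n = 3), a gap of 15.0 points (exact permutation p = 0.2). Without the members that were 0 in any library, that gap was 8.07 points (exact permutation p = 0.5).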

How the results depend on the processing

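No member was called in the 8 treatment comparisons by limma under any left-out library, scaling, pseudocount or filter, in room A alone or in all 12 libraries of a cell type, nor by edgeR. The exceptions were 1 member each in IEC Veh DSS over Veh Water and in IEC TSO DSS over Veh DSS, with zeros kept as 0 and with DESeq2 (1 at either threshold). The numbers of the replicates do not pair rabbits of different groups, and with them as a replicate block 0 members were called as well. TSO DSS over Veh DSS involves no rabbit of room B, so no fit of room A alone was made there.

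Between the cell types, the members called, each beside the percent of all genes called, numbered 7 of 25 with CPM over genes outside MT (14.6%), 1 of 25 without the filter on low genes (17.5%), 6 of 32 with zeros kept (20.1%), 6 of 32 by edgeR (20.4%), 7 of 32 by DESeq2 (21.4%) and 1 to 8 without each rabbit: 8 of 23 without Veh DSS replicate 2 (20.9%), and of 25 each, 6 without Veh Water replicate 2 (19.1%), 5 without Veh Water replicate 3 (18.7%) or TSO DSS replicate 2 (21%) and 1 without TSO Water replicate 3 (18.7%). Those at an adjusted p under 0.05 numbered 7 with CPM over all genes (46.3% of all genes), 8 with CPM over genes outside MT (55.9%), 7 with zeros kept (50.9%), 12 of 29 without the rabbit as a replicate block (49.6%), 2 of 24 in room A (46%), 7 by edgeR (50.4%), 15 by DESeq2 (54.7%) and 2 to 11 without each rabbit (45.7% to 53.5%). With zeros kept, ENSOCUG00000029094 turned to 0.090 (adjusted p = 0.950), because its 0 in TSO DSS replicate 3 of LPMC then enters. CPM over all genes moved the median of all genes to -0.20 in IEC TSO Water and -0.21 in IEC TSO DSS, with the abundant members at 0.07 and 0.06.

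Medians of the abundant members without each replicate ran in IEC from -0.27 to 0.99 (TSO Water), -1.29 to -0.16 (Veh DSS), -0.19 to 0.69 (TSO DSS) and 0.36 to 1.56 (TSO DSS over Veh DSS), in LPMC from -0.97 to -0.28, -0.59 to 0.09, -1.17 to -0.48 and -0.86 to -0.19, and between cell types from 0.60 to 1.00. Share differences without each replicate ran in IEC from 4.18 to 16.3, -7.26 to 1.49, 0.520 to 13.3 and 2.25 to 16.3 points, in LPMC from -8.71 to -2.96, -5.57 to 0.181, -10.7 to -4.88 and -7.77 to -2.91, and between cell types from 5.00 to 9.36. The share difference between cell types passed 0.05 without the members at 0 in any library (8.01 points), without the most abundant member (10.1), without the replicate block (7.70, permutation p = 0.0277), with listed zeros filled at each gene's median ratio to the 12 (14.2), for the 12 members per 100 units outside MT (11.5), the last 2 chosen after seeing the data, and without Veh DSS replicate 2 (9.36, exact permutation p = 0.0371). It was 5.78 points in room A (exact permutation p = 0.238). Apart from the ranges above, the other settings of the share differences, and of r by its adjusted p, had the direction and the side of the threshold reported. The rho of the share in LPMC on that in IEC went from -0.40 (permutation p = 0.199) to -0.67 (0.0191, adjusted 0.0572) without the members at 0 in any library. Of the single genes, ENSOCUG00000029099 had an adjusted p of 0.0728 without the filter, 0.134 in room A and 0.0541 by edgeR, and ENSOCUG00000029105 of 0.0931 in room A.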
